A study of Rattus norvegicus with 6 samples.

Results

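Cell cycle and DNA replication genes were followed in the liver of rats fed epsilon-momfluorothrin, a pyrethroid insecticide. The list held 42 genes, and its members on the array were all probe sets that the platform annotation assigns to one of these genes alone, with no filter on low signals. This gave 56 probe sets of 40 genes, out of 31042 probe sets and 14217 named genes on the array, not counting 57 Affymetrix controls. Rrm2 had no probe set of its own, since 2 probe sets were annotated to it together with Rrm2l1, and none was annotated to Tpx2. The 6 animals were male BrlHan:WIST@Jcl(GALAS) rats, purchased when 4 weeks old, kept in quarantine for 1 week, and 7 weeks old when sampled, with 1 array per animal. Controls were 3 rats on powdered diet without the compound, and 3 rats received the same kind of diet with the compound for 2 weeks. Sample titles and the treatment protocol give its level as 3000 ppm, while the sample characteristics give 5000 ppm, so the dose is not settled here.

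Hepatocytes of an adult liver rest outside the cell cycle and re-enter it after tissue loss or when a mitogen acts on them. D-type cyclins with Cdk4 start the passage through G1, cyclin E with Cdk2 opens S phase, the Mcm2 to Mcm7 helicase unwinds DNA at the fork, and cyclins A and B with Cdk1 drive mitosis. Compounds that activate the nuclear receptor CAR are known to set off a wave of hepatocyte replication in rodents, mostly early in the exposure.

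The whole liver was hybridised, so a change in the number of dividing cells and a change in RNA per cell cannot be told apart. Array medians were 27.0 to 29.4 in the controls and 23.1 to 26.5 in the treated rats, 28.3 ± 1.18 and 25.2 ± 1.83 (SD, n = 3 each, exact permutation p = 0.1, 2-sided, the smallest that 3 against 3 allows). Over all probe sets the median log2 difference, treated minus control, was -0.08, and median centring moved it to 0.09. A probe set is called dim in a group when its signal was at or below the array median on each of the 3 arrays. All 10 hepatocyte markers, among them Alb and Hnf4a, were above the array median on all 6 arrays.

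Many promoters of this family share short sequence elements. E2F factors bind sites such as TTTCGCGC, TTTGGCGC and TTTCCCGC in genes of G1 and S phase, while genes of G2 and mitosis often hold a cell cycle homology region, TTTGAA or TTCGAA, near a CCAAT box. In the 250 bases before the start of transcription, on both strands, CCAAT stood in 25 of 33 member promoters (75.8%) and in 34.0% of all 33469 rat promoters of the same length. The homology region stood in 13 (39.4%), against 17.4% of all, and an E2F site in 6 (18.2%), against 1.41% of all. Both CCAAT and the homology region were found in 11 member promoters (33.3%), against 6.31% of all. These are matches of letters, not binding sites, and the sequences are RefSeq's on build GRCr8, with entries for 32 of the 40 genes (not Aurkb, Ccna2, Ccnd1, Ccnd2, Ccne2, Mcm4, Racgap1 and Ube2c). Promoters and not genes were counted. Cdkn3 has overlapping entries, each with CCAAT and the homology region, which were counted separately. The promoters of the 4 genes that had a probe set with no overlap between the groups are shown. That probe set was higher in treated rats for Cdk1 and lower for the other 3 genes. Further probe sets of Ccnb1, Cdc20 and Cdk2 overlapped. Those without overlap of Cdk1, Ccnb1 and Cdc20 were dim in both groups. Cdk1 had no further probe set, and its log2 difference fell from 1.27 to 0.44 without control replicate 3. None of this is therefore a direction of the gene. Member probe sets without overlap were 1.79% higher and 5.36% lower, against 5.23% and 10.2% of all probe sets. The Cdk1 promoter held 1 E2F site, 2 homology regions and 3 CCAAT boxes, that of Cdc20 held 1 homology region and 2 CCAAT boxes, and those of Ccnb1 and Cdk2 held CCAAT boxes without either other motif. Capitals mark the matches, none of which overlap in these 4 promoters (ATTGG is CCAAT on the other strand), and each sequence reads 5′ to 3′ on the strand of the gene.
Cdk1, chr20:19265043-19265292, plus strand: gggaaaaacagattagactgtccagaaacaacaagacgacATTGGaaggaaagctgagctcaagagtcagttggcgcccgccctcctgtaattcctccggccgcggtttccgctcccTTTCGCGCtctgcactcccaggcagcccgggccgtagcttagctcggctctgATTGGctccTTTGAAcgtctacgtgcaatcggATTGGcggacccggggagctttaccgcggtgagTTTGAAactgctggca
Ccnb1, chr2:33655226-33655475, minus strand: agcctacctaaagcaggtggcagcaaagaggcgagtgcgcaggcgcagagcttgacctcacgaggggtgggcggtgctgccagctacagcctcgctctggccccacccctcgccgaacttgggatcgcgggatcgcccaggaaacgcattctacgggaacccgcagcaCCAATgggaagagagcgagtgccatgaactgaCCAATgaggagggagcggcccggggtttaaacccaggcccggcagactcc
Cdc20, chr5:137255800-137256049, minus strand: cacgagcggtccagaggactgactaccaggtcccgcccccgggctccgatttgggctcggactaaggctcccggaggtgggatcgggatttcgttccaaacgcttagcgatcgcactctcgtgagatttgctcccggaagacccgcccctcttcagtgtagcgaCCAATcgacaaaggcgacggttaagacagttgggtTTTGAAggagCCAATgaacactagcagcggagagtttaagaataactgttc
Cdk2, chr7:1721879-1722128, minus strand: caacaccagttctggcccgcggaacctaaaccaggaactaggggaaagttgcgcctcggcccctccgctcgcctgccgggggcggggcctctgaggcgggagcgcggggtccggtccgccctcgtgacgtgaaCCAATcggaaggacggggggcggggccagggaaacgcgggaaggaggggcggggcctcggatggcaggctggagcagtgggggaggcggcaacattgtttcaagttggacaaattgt

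After 2 weeks on the diet none of the 56 probe sets passed the adjusted threshold of 0.05 in limma in either direction, and the smallest adjusted p was 0.38. Over all probe sets 18 passed upward (0.058%) and 3 downward (0.00966%), and 21 in either direction (0.0677%). At an unadjusted p under 0.05, 4 of the 56 stood out (Pcna higher; Cdk2, Cdc20 and Nusap1 lower, each in 1 probe set), where 8.93% of all probe sets did, 3.4% higher and 5.53% lower. The groups did not overlap for 1 probe set that was higher and 3 that were lower, 1.79% and 5.36% of the members, against 5.23% and 10.2% of all probe sets. With the signals as deposited, these shares lay below the background in both directions. The counts moved with the scaling, and so did the background. With quantile normalization 4 member probe sets were higher (7.14%, against 7.05% of all probe sets) and 3 lower (5.36%, against 6.84%). With median centring 6 were higher (10.7%, against 12.3%) and 2 lower (3.57%, against 4.55%). With 1 array fewer, which makes overlap less likely, higher members numbered 2, 5 and 5 without control replicates 1, 2 and 3 and 1, 4 and 4 without treated replicates 1, 2 and 3, or 1.79% to 8.93% of the members, where 8.88% to 9.71% of all probe sets were higher. Lower members numbered 9, 5 and 4 without the same controls and 9, 10 and 4 without the same treated rats, or 7.14% to 17.9%, where 14.3% to 18.6% of all probe sets were lower. The median log2 difference was -0.09 over the 40 genes, each represented by its brightest probe set, -0.07 over the 56 probe sets and -0.08 over all probe sets. It depended on brightness. For probe sets dim in both groups it was 0.04 in the members and -0.24 over all. For the others it was -0.11 in the members and -0.04 over all. Most of these other members had a mean log2 signal of 4 to 6. There the median over all probe sets was -0.18 (4 to 5) and -0.10 (5 to 6). The value of -0.04 is therefore not matched to them in brightness. The departures of both sets of members from all probe sets were not tested.

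The roles differed in how many of their genes were dim, which depends on the probes as well as on the RNA. Of the 56 probe sets 33 (58.9%) were dim in both groups, against 41.9% of all probe sets. Among genes of G1, replication and nucleotide supply 6 of 19 were dim in both groups, whereas among genes of G2 and mitosis it was 15 of 21, by their brightest probe sets. All 10 genes that stayed above the median on every array belonged to the first set: Ccnd1, Ccnd2, Ccnd3, Cdk2, Cdk4, Cdkn1b, Mcm7, Pcna, Rrm1 and Tk1. The median SE of the log2 difference was 0.16 over these 10 and 0.48 over the 21 dim genes. The 95% intervals of the 10 lay between -0.88 and 0.61, so that a change of 1 log2 unit lay outside each. For the 21 dim genes the intervals reached from -3.09 to 3.78, so that smaller differences were not all detectable at these signals.

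**Figure D1:**
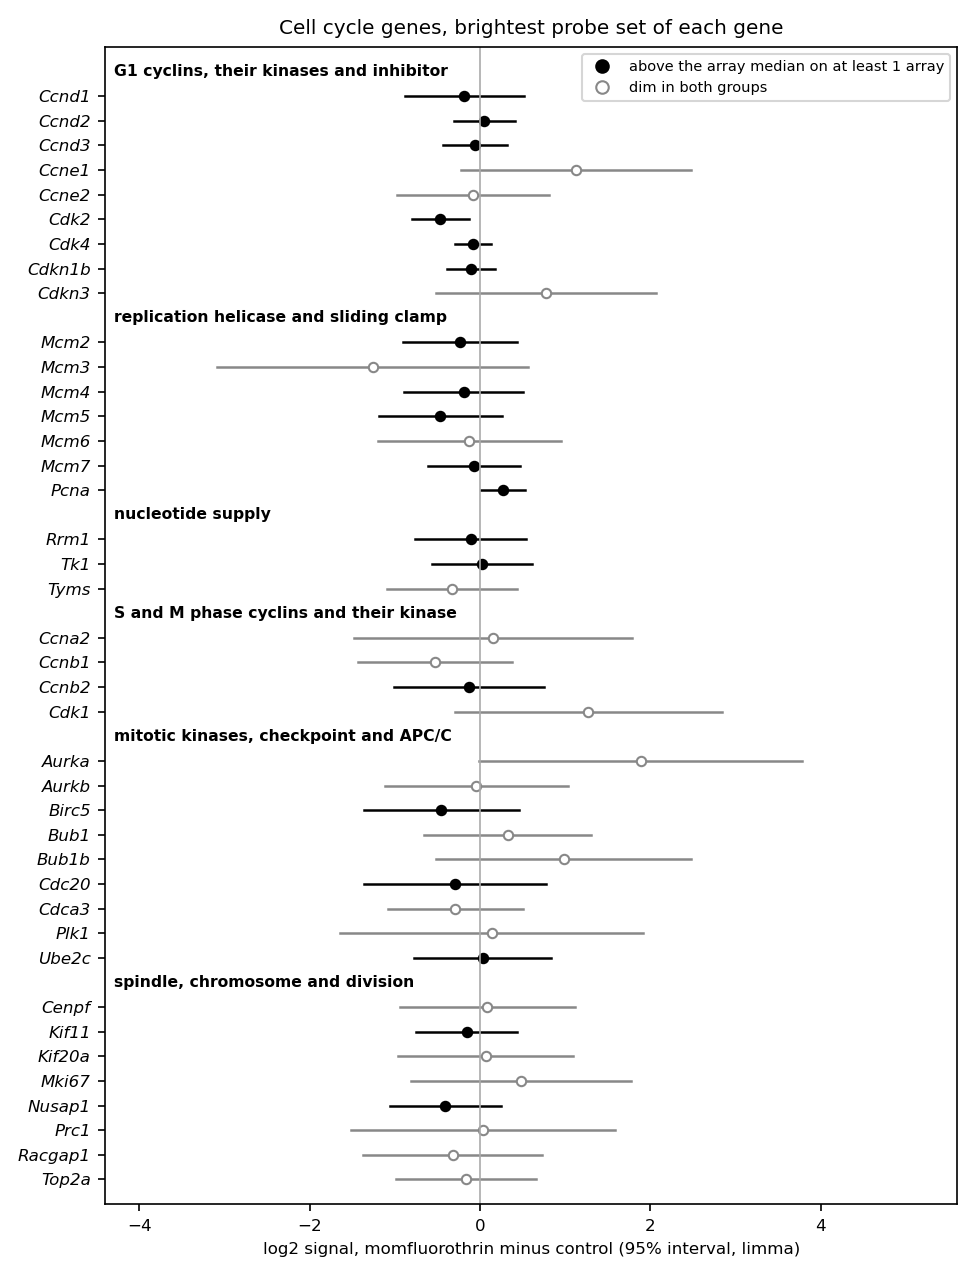
Each point is the log2 signal difference, treated minus control, of the brightest probe set of 1 of 40 genes, with its 95% interval from limma over 3 arrays a group. Filled points mark genes above the array median on at least 1 array, and open points mark the 21 genes dim in both groups, whose SEs had a median of 0.48 against 0.29 for the other 19 genes.

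The D-type cyclins sense growth signals and bind Cdk4. Ccnd1, which rises when hepatocytes leave rest, gave 63.1, 97.5 and 58.0 in the 3 controls, listed by replicate number as throughout, against 41.1, 97.6 and 60.7 in the treated rats. The groups overlapped widely, and replicate 2 of each group was the highest. The log2 difference was -0.18 ± 0.31 (SE, adjusted p = 0.878 in limma, 95% interval -0.88 to 0.51). Replicate 2 was also the highest of its group in both other probe sets of Ccnd1, at 70.7 and 60.3 in the first and 45.8 and 44.8 in the second, whose log2 differences were 0.20 ± 0.33 and 0.04 ± 0.35. All 3 probe sets therefore placed the same animals at the top, and none separated the groups. Ccnd2 had control signals of 67.5, 69.4 and 65.1 and treated signals of 62.5, 83.4 and 65.1, with treated replicate 2 again the highest (log2 difference 0.05 ± 0.16, adjusted p = 0.938 in limma). Signals of Ccnd3 were 119.7, 114 and 118 in the controls and 116, 141 and 87.7 in the treated rats (-0.06 ± 0.17, adjusted p = 0.932). Control values of Ccnd3 lay close together, while the treated values reached above and below them.

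Cdk4, the kinase of the D cyclins, was measured at 394, 354 and 385 in the controls and 392, 349 and 329.9 in the treated rats, which gave -0.08 ± 0.10 on the log2 scale (SE; limma, adjusted p = 0.81). Its 95% interval of -0.30 to 0.13 was the narrowest among the members. Cdkn1b encodes p27, an inhibitor that holds cyclin and kinase complexes inactive in resting cells. Its signals were 492, 468 and 583 in the controls and 456, 421 and 562 in the treated rats (-0.11 ± 0.13, adjusted p = 0.822), and replicate 3 was the highest in each group. A further probe set of Cdkn1b was dim in both groups and had a positive difference of 1.14 ± 0.90. The sign of the small differences of Cdk4, Cdkn1b and Ccnd3 turned with median centring.

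Cdk2, the kinase of cyclin E that opens S phase, was the member above the array median on every array whose groups did not overlap. This probe set (1394320_at) had signals of 90.4, 80.3 and 102 in the controls and 61.0, 65.0 and 71.1 in the treated rats, so every treated animal was below every control animal. The log2 difference was -0.47 ± 0.15 (SE, n = 3, 95% interval -0.80 to -0.13) and did not pass the threshold (adjusted p = 0.425 in limma). With median centring it was -0.29. A further probe set of Cdk2 (1378874_at), also above the median on all arrays, gave 39.0, 47.8 and 49.5 in the controls and 46.0, 47.2 and 39.8 in the treated rats, with overlapping groups and a log2 difference of -0.03 ± 0.19. Within arrays the ratio of the 2 probe sets differed between the groups by a log2 of -0.43 (exact permutation p = 0.2, 2-sided, a comparison chosen after the values were seen). Groups without overlap were thus seen in 1 of the 2 probe sets of Cdk2.

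The partners of Cdk2 were dim in both groups. Ccne1 had signals of 5.00, 7.21 and 26.9 in the controls and 19.8, 24.6 and 20.7 in the treated rats. Control replicate 3 lay above all treated animals and the other controls below them (log2 difference 1.13 ± 0.60, adjusted p = 0.608 in limma). Ccne2 was at 12.1 to 25.7 in its brighter probe set, and Cdkn3, a phosphatase that removes the activating phosphate of Cdk2, at 3.82 to 14.7.

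**Figure D2:**
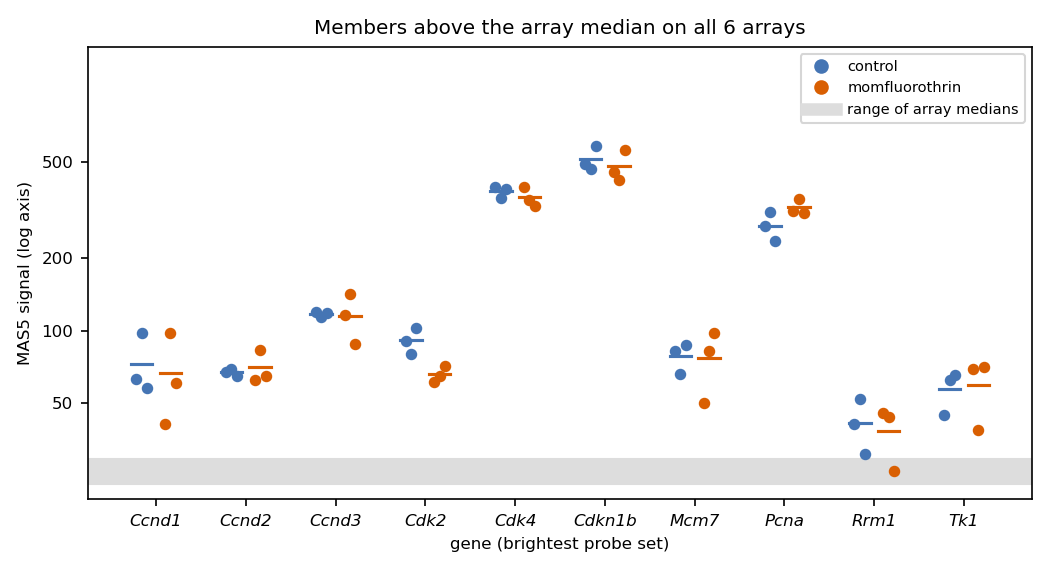
MAS5 signals (log axis) on each of 6 arrays for the 10 member genes above the array median on all arrays, with the mean of 3 arrays as a bar and the range of array medians in grey. Signals of different genes come from different probes and are not comparable in level. Control and treated animals overlap for every gene but Cdk2.

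Pcna, the sliding clamp that holds DNA polymerase on its template, was the replication gene with a positive difference. Its signals were 270.4, 309.1 and 234.9 in the controls and 313.8, 351.3 and 308.7 in the treated rats. Control replicate 2 lay just above treated replicate 3, so the groups overlapped, if by little. The log2 difference was 0.26 ± 0.12 (SE, n = 3, 95% interval 0.01 to 0.52), and it did not pass the threshold (adjusted p = 0.557 in limma). It was 0.44 with median centring and 0.16 without control replicate 3.

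The other 6 members of this group, the Mcm2 to Mcm7 subunits of the replicative helicase, had negative differences, none past the threshold. Negative differences were the more common sign over all probe sets (18660 of 31042). Their median over all probe sets was -0.25 at a mean log2 signal of 3 to 4 and -0.18 at 4 to 5. The subunits other than Mcm7 lay in these ranges of signal. Mcm7 was the subunit above the median on all arrays, with 82.0, 66.1 and 86.9 in the controls and 50.1, 82.3 and 97.9 in the treated rats (log2 difference -0.07 ± 0.24, adjusted p = 0.94 in limma). The treated animals spanned a wider range than the controls and enclosed them. Mcm2 had 26.1, 38.2 and 24.0 in the controls and 20.4, 30.2 and 23.8 in the treated rats (-0.23 ± 0.30), and control replicate 2 was the highest. For Mcm4 the signals were 37.2, 36.1 and 26.0 in the controls and 31.1, 19.5 and 38.4 in the treated rats (-0.19 ± 0.31), and the highest and lowest values were both in treated animals. Mcm5 had 22.6, 28.8 and 30.1 in the controls and 27.2, 16 and 17.1 in the treated rats, with 2 of the 3 treated animals below all controls (-0.46 ± 0.32, adjusted p = 0.685 in limma). Mcm3 and Mcm6 were dim in both groups, and the -1.26 ± 0.81 of Mcm3 came with a signal of 1.93 in treated replicate 3 against 13.8 and 20.2 in the other treated animals. The subunits act together in a ring, and no animal was the lowest in all of them.

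For all 3 enzymes of nucleotide supply the groups overlapped. Tk1, the thymidine kinase of S phase, had 44.5, 62.2 and 65.2 in the controls and 69.3, 38.8 and 70.5 in the treated rats (log2 difference 0.02 ± 0.26, adjusted p = 0.984 in limma). A further bright probe set of Tk1 gave 0.10 ± 0.18. Its remaining probe set was dim and gave 1.03 ± 0.61. Rrm1, the large subunit of ribonucleotide reductase, had 41.0, 52.0 and 30.6 in the controls and 45.7, 43.6 and 26.1 in the treated rats (-0.11 ± 0.29), with replicate 3 the lowest of each group. Tyms, the thymidylate synthase, was dim on all arrays at 13.2 to 25.5 (-0.33 ± 0.34).

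Of the cyclins of S phase and mitosis and their kinase, 3 of 4 genes were dim in both groups. Cdk1, which drives entry into mitosis, had signals of 10.4, 13.8 and 2.12 in the controls and 16.1, 17.9 and 15.0 in the treated rats. Every treated animal was above every control, and all 6 values were below their array medians (log2 difference 1.27 ± 0.70, adjusted p = 0.615 in limma), so no fold is given. Control replicate 3 was the lowest, and its gap to the other controls was wider than that between any 2 treated rats. Without that array the log2 difference was 0.44.

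Ccnb1, the cyclin partner of Cdk1, had negative differences. Its brighter probe set (1370345_at) had 16.2, 23.2 and 29.1 in the controls and 11.8, 23.4 and 13.3 in the treated rats, with overlapping groups (log2 difference -0.53 ± 0.40, adjusted p = 0.711 in limma). The further probe set (1370346_at) had 21.4, 24.6 and 26.8 in the controls and 16.6, 2.17 and 16.9 in the treated rats, with no overlap (-1.51 ± 0.74, adjusted p = 0.586). Treated replicate 2 was the lowest there, and the difference was -0.53 without it, whereas it was the highest treated animal in the brighter probe set. Both probe sets were dim in both groups. Ccnb2 had 27.1, 18.2 and 19.3 in the controls and 28.7, 12.1 and 20.9 in the treated rats, above the array median in replicate 1 of each group only (-0.13 ± 0.39). Ccna2, the cyclin of S phase and early mitosis, was dim at 3.09 to 13.6.

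Among mitotic kinases, checkpoint proteins and the ubiquitin machinery that ends mitosis, 6 of 9 genes were dim in both groups. Cdc20, the activator of the anaphase-promoting complex, was annotated to 5 probe sets, which disagreed. Its brightest probe set (1370294_a_at) had 14.7, 26.2 and 19.9 in the controls and 17.8, 27.3 and 8.49 in the treated rats, dim in the controls and above the median in treated replicate 2 alone (log2 difference -0.30 ± 0.48, adjusted p = 0.872 in limma). The probe set 1387895_s_at had 15.1, 14.4 and 10.6 in the controls and 3.92, 3.53 and 3.93 in the treated rats. The groups lay apart and the treated animals close together, with a log2 difference of -1.80 ± 0.53 and the smallest adjusted p of the members, 0.38. All 6 values were dim, and the suffix marks a probe set whose probes can match more than 1 transcript. Differences of the remaining 3 probe sets ran from -2.12 ± 1.09 to 1.60 ± 1.24.

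Birc5, the survivin subunit of the chromosomal passenger complex, had 21.5, 14.1 and 32.6 in the controls and 18.3, 17.7 and 11.9 in the treated rats (-0.45 ± 0.41, adjusted p = 0.753 in limma), and control replicate 3 was the one array where it exceeded the median. Ube2c, the ubiquitin-conjugating enzyme of the same complex as Cdc20, had 16.7, 31.6 and 22.4 in the controls and 22.8, 31.9 and 17.3 in the treated rats (0.03 ± 0.36), with replicate 2 above the array median in both groups. Aurka, a spindle kinase, had the largest upward difference of the members, 1.88 ± 0.85 (adjusted p = 0.563 in limma), from dim signals of 12.3, 2.14 and 1.36 in the controls and 13.1, 8.62 and 15.8 in the treated rats. The groups overlapped through control replicate 1. Aurkb, Plk1, Bub1, Bub1b and Cdca3 were dim as well, with differences from -0.29 ± 0.35 for Cdca3 to 0.98 ± 0.66 for Bub1b.

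**Figure D3:**
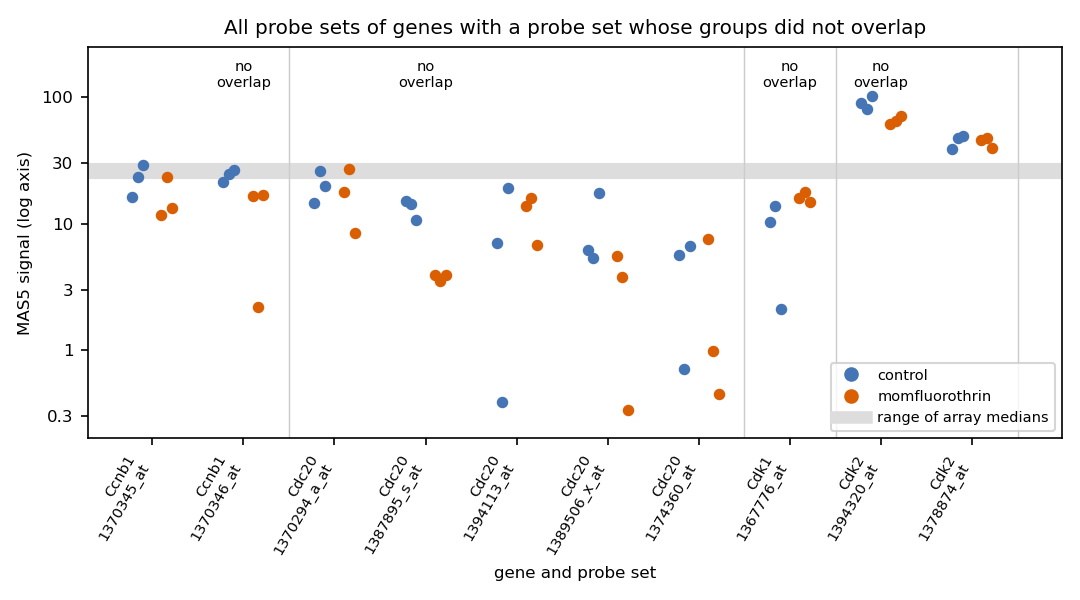
MAS5 signals (log axis) on each of 6 arrays for all probe sets of Ccnb1, Cdc20, Cdk1 and Cdk2, with the range of array medians in grey and the probe sets whose groups did not overlap marked. Further probe sets of Ccnb1, Cdc20 and Cdk2 overlap between control and treated animals, and the Cdk2 probe sets alone lie above the array medians.

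Mki67 and Top2a, which are read as markers of dividing cells as Pcna is, were below the array median on all 6 arrays. Mki67, which encodes the Ki-67 antigen of cycling cells, had signals of 4.17, 16.2 and 10.7 in the controls and 14.7, 12.3 and 10.9 in the treated rats, all dim (log2 difference 0.48 ± 0.58, adjusted p = 0.821 in limma, 95% interval -0.81 to 1.78). Top2a, the topoisomerase that untangles chromosomes, had 13.9, 15.5 and 17.1 in the controls and 12.4, 13.9 and 15.1 in the treated rats (-0.17 ± 0.37, adjusted p = 0.911), also dim. A further dim probe set of Top2a had a difference of the other sign (0.52 ± 0.82, 95% interval -1.32 to 2.36), against an interval of -0.99 to 0.66 for the brighter one. Neither Mki67 nor the brighter Top2a probe set separated the groups, and without control replicate 1 the difference of Mki67 was -0.07.

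Of the proteins that build the spindle and divide the cell, Nusap1 and Kif11 exceeded the median on some arrays. Nusap1, a microtubule bundling protein, had 30.4, 45.2 and 29.7 in the controls and 31.7, 28.1 and 19.7 in the treated rats in its brighter probe set (log2 difference -0.41 ± 0.29, adjusted p = 0.696 in limma). Its dim probe set had 10.2, 26.5 and 19.9 in the controls and 3.59, 11.1 and 4.24 in the treated rats (-1.66 ± 0.61, adjusted p = 0.504). Control replicate 2 was the highest in both probe sets, and treated replicate 2 overlapped control replicate 1 in the dim one. Kif11, the motor that separates the spindle poles, had 28.8, 36.7 and 28.5 in the controls and 33.1, 29.2 and 22.4 in the treated rats (-0.16 ± 0.26). Cenpf, Kif20a, Prc1 and Racgap1, which act at kinetochores and in cytokinesis, were dim in both groups, with differences from -0.32 ± 0.47 to 0.09 ± 0.46 in their brightest probe sets.

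**Figure D4:**
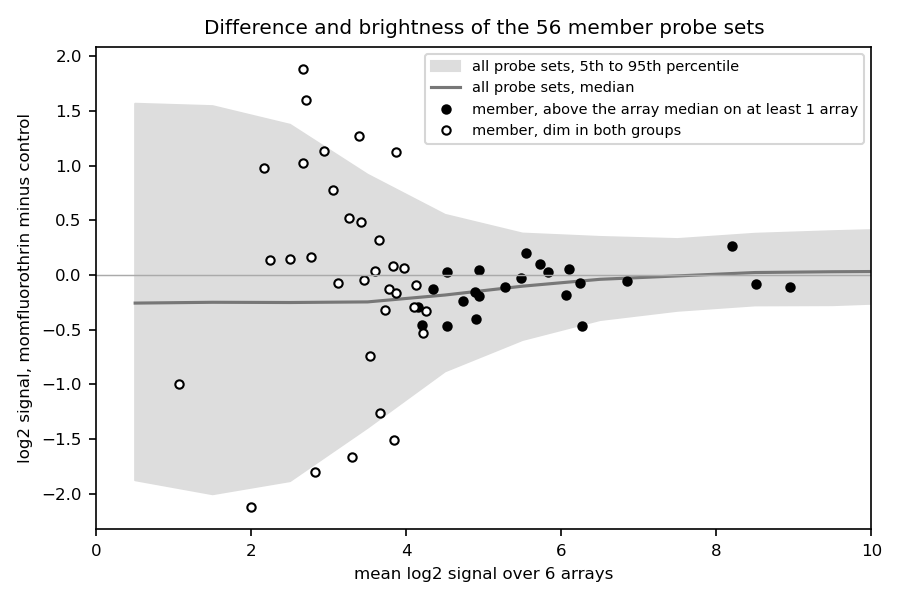
The log2 difference, treated minus control, of the 56 member probe sets against their mean log2 signal over 6 arrays, with the median and the 5th to 95th percentile of all probe sets in grey. The differences of members widen towards low signals, as those of all probe sets do, and the 33 dim probe sets (open points) hold all differences beyond 0.5 in either direction.

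The rest of the pathway was read from 4 further lists of genes, and none of their members passed the adjusted threshold in limma. At an unadjusted p under 0.05, 5 of their 133 measured genes were higher and 10 lower, by their brightest probe sets. Over all probe sets 3.4% were higher and 5.53% lower at that p. The groups did not overlap for 8 genes that were higher and 12 that were lower. These are 6.02% and 9.02% of the 133, against 5.23% and 10.2% of all probe sets. In the list of G1 and S phase control, which holds the retinoblastoma and E2F families and further kinase inhibitors, none of 27 measured genes was called, 1 higher and 2 lower at an unadjusted p under 0.05 (median log2 difference -0.02). E2f4, a repressor E2F of resting cells, had 191.1, 191.0 and 193.4 in the controls and 154.8, 176.4 and 124.6 in the treated rats (-0.35 ± 0.13, adjusted p = 0.514). Rb1, the retinoblastoma protein that E2F factors bind, had 155, 144 and 161 in the controls and 136, 123 and 64.6 in the treated rats (-0.58 ± 0.24, adjusted p = 0.551). In this list 1 gene was higher and 3 were lower without overlap (3.70% and 11.1%), near the shares of all probe sets. For both E2f4 and Rb1 every treated animal lay below every control, and treated replicate 3, the array with the lowest median, was the lowest. Without that array the differences were -0.22 for E2f4 and -0.25 for Rb1.

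Among 40 measured genes of DNA replication none was called, with 2 higher and 2 lower at an unadjusted p under 0.05 (median -0.15). The share over all probe sets was 3.4% higher and 5.53% lower. Rpa3, a subunit of the protein that coats single-stranded DNA, had 342, 351 and 345 in the controls and 383, 387 and 441 in the treated rats (0.22 ± 0.09, adjusted p = 0.537). Hells, a chromatin remodeller of dividing cells, had 194, 184 and 229 in the controls and 193, 154 and 124 in the treated rats (-0.38 ± 0.16, adjusted p = 0.553). The groups lay apart for Rpa3 and overlapped for Hells. In this list 2 genes were higher and 2 lower without overlap (5% each), against 5.23% and 10.2% of all probe sets. With median centring the differences were 0.39 for Rpa3 and -0.21 for Hells, and that of Hells was -0.22 without treated replicate 3.

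Of 46 measured mitosis genes 23 were dim in both groups. No gene was called, with 0 higher and 5 lower at an unadjusted p under 0.05 (median 0.04). The background over all probe sets was 3.4% higher and 5.53% lower, for this list and the next. Ccnf, cyclin F, which marks cell cycle proteins for degradation, had 70.7, 80.7 and 92.1 in the controls and 44.0, 50.5 and 50.8 in the treated rats, with the groups apart (-0.74 ± 0.16, adjusted p = 0.235). Dlgap5, a spindle protein, had 28.1, 14.6 and 30.1 in the controls and 11.8, 9.26 and 1.02 in the treated rats. The difference was -2.26 ± 0.88 (adjusted p = 0.518), and -1.14 without treated replicate 3. It was dim in the treated rats and could be named only because 2 control arrays lay above the median. That choice favours a lower treated signal, so its difference is not support for a decrease. Growth signals and their receptors gave no call among 20 measured genes either (2 higher and 1 lower at an unadjusted p under 0.05, median -0.01). Axin2, a target of Wnt signalling, had 84.2, 88.9 and 82.5 in the controls and 69.6, 47.0 and 60.1 in the treated rats (-0.55 ± 0.17, adjusted p = 0.416). Nr1i3, which encodes CAR, had 308, 344 and 249 in the controls and 349.8, 359 and 405 in the treated rats (0.32 ± 0.13, adjusted p = 0.533). The groups did not overlap for either gene, and the difference of Nr1i3 was 0.19 without control replicate 3. Without overlap, 3 mitosis genes were higher and 6 lower (6.52% and 13.0%). Of the growth signal genes 2 were higher and 1 lower (10% and 5%). Over all probe sets these shares were 5.23% and 10.2%.

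Cells other than hepatocytes also divide in the liver, and their markers were read beside these results. No marker of 7 cell types passed the adjusted threshold in limma. Over all probe sets 18660 of 31042 had a negative difference, the background for the counts of negative differences below, though not matched in brightness. The median log2 difference of all probe sets was -0.25 at mean log2 signals of 3 to 4. It was 0.03 at 10 to 11 and -0.08 at 12 to 13. The hepatocyte markers were bright, at signals of 977 to 12289. Of 10 lymphocyte markers 5 were dim in both groups and 8 had a negative difference, and their summed signal was 241 to 259 in the controls and 196 to 234 in the treated rats (exact permutation p = 0.1, 2-sided, n = 3 each). Of 9 macrophage markers 5 had a negative difference, with a median log2 difference near 0, although their sum was 2706 to 3567 in the controls and 3579 to 4107 in the treated rats (exact permutation p = 0.1). Cd14 alone among them had groups apart, with 731 to 1277 in the controls and 1548 to 2046 in the treated rats. This is 11.1% of the macrophage markers, where 5.23% of all probe sets were higher without overlap and 10.2% lower. At an unadjusted p under 0.05 in limma 1 macrophage marker was higher and 1 lower. Of 9 markers listed for cholangiocytes 3 were dim in both groups and 4 had a negative difference (median 0.09). Their sum was nevertheless 1667 to 1765 in the controls and 1365 to 1628 in the treated rats (exact permutation p = 0.1). Krt18 and Onecut1, with control means of 906 and 503, were the brightest of them and made up most of this sum. Onecut1 was at 341 to 671 in the controls and 146 to 455 in the treated rats, whereas Epcam, with groups apart, was at 67.1 to 95.1 and 107 to 138. Epcam alone among these markers had groups apart, 11.1% of them, against the same shares of all probe sets. A sum over probe sets follows its brightest members, and these sums are not levels of a cell type. Hepatocyte markers, 8 of 10 with a negative difference, summed to 67590.5 to 75606 in the controls and 60499.8 to 67367 in the treated rats, also without overlap (exact permutation p = 0.1). Sums over endothelial, stellate and erythroid markers overlapped between the groups. The part of these shifts in the values of the cell cycle genes was not tested.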

How the data were processed

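Liver RNA of 6 rats was measured on 1-colour Affymetrix arrays. Deposited intensities are linear signals. The submitters' processing notes name MAS5 as the tool that produced them, and its version was not given in the sources used here. Arrays shared a trimmed mean of about 100 with 2% left out at each end, so no further scaling was applied. The 57 Affymetrix controls were left out. Log2 signals with no pseudocount went into limma 3.58.1 (R 4.3.3; lmFit and trended eBayes), 2-sided, over all 31042 probe sets with no filter on low signals and Benjamini-Hochberg adjustment over all of them; values are treated minus control ± SE of this fit. Gene names came from GEO's platform annotation (20826 probe sets with 1 symbol, 436 with several, 9780 with none). Of the 40 genes, 15 would pass a filter at the array median on 3 of 6 arrays.

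Members and lists were chosen with earlier results of these data known. A gene was represented by its brightest probe set. Members not dim in both groups, at an unadjusted p under 0.05 or with groups apart were given by array, Mki67, Top2a, Cdk1 and Ccnb1 whatever their values, and from each further list the 2 genes with the smallest p that were not dim in both groups; array values of Aurka, Ccne1 and Mcm3 were added after their values were seen. Alternatives changed the filter, scaling, pseudocount, variance model, replicate block, probe set rule and each array. The fit was tested on simulated arrays with changed probe sets drawn at any brightness. How often it finds changes in dim probe sets was not measured. The number of arrays limits the precision.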

Additional observations from a re-analysis of the deposited data

How the results depend on the processing

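No member and no gene of the 4 further lists passed the adjusted threshold in limma under any of the 13 alternatives, which changed the filter, scaling, pseudocount (16), variance model, replicate block and probe set rule or left out 1 array. The adjusted p of the 34 named probe sets stayed at or above 0.144. Equal replicate numbers shared little beyond the number (correlations of deviations -0.10, 0.10 and -0.06 for replicates 1, 2 and 3). With the replicate block the members' median log2 difference was -0.09, with 0 members past the threshold, and no call on a member changed. Over all alternatives that median ran from -0.14 without control replicate 1 to 0.09 with median centring. Member probe sets with groups apart, 1 higher and 3 lower, became 0 and 1 of 19 with a filter at the array median (7.40% and 10.4% of the 15778 probe sets kept), 4 higher with quantile normalization (7.05% of all) and 6 higher with median centring (12.3% of all); without 1 array they ranged from 1 to 5 higher (8.88% to 9.71% of all) and from 4 to 10 lower (14.3% to 18.6% of all). Leaving out 1 array moved the difference of 28 of the 34 named probe sets by over 1.5 times or turned it, and 32 did so under at least 1 alternative. With the 60th percentile as the dim limit, 42 of 56 were dim in both groups, against 33. Over all probe sets the calls were 1 higher and 0 lower without the intensity trend, 4 and 1 without treated replicate 2, 5 and 0 without treated replicate 3, 10 and 1 without control replicate 2, 12 and 3 without treated replicate 1, 10 and 5 with the replicate block, and 21 and 6 with the filter.

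The sign turned in 34 of 427 values; the causes were not tested. With median centring these were Ccnd3 (0.11), Cdk4 (0.090), Cdkn1b (0.068), Ccnb2 (0.042), Rrm1 (0.062), Mcm7 (0.099), Kif11 (0.014) and Top2a (0.0076), and with quantile normalization Ccnb2 (0.067), Rrm1 (0.027), Kif11 (0.0079) and Top2a (0.050). With the mean of all probe sets of a gene they were Ccnd1 (0.022), Cdkn1b (0.52), Kif11 (0.0039) and Top2a (0.18). Without 1 array the range was -0.51 to 0.12 for Ccnd1, -0.077 to 0.13 for Ccnd2, -0.22 to 0.12 for Ccnd3, -0.42 to 0.21 for Ccnb2, -0.68 to 0.16 for Cdc20, -0.20 to 0.27 for Ube2c, -0.31 to 0.15 for Rrm1, -0.15 to 0.31 for Tk1, -0.41 to 0.080 for Mcm4, -0.28 to 0.21 for Mcm7 and -0.071 to 0.91 for Mki67.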
